A study of Sus scrofa with 12 samples.

Results

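The state described here is that of porcine aortic valve interstitial cells (paVICs) given lysophosphatidylcholine (LPC) and dantrolene together for 24 h. The libraries were chosen by their labels: the 3 LPC + dantrolene libraries were compared with the 3 vehicle libraries, which makes 6 of the 12 RNA-seq libraries of the study. The other 6 libraries came from cells given LPC alone or dantrolene alone and were used to show where the combination differed from either compound. All cells were wild type. LPC was used at 10 μM and dantrolene at 60 μM, and the vehicle was 0.6% DMSO with 0.1% EtOH. Each replicate number marks one primary isolation, and each isolation pooled the aortic valves of several hearts, so a replicate is a pool of animals and not one animal. The cells had been frozen, thawed and passaged before treatment in low-serum medium, so they were cultured cells and not fresh tissue.

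LPC is a phospholipid of oxidized lipoproteins that raises cytosolic calcium and drives valve interstitial cells to form calcific nodules in culture. Dantrolene blocks the ryanodine receptor, the channel through which calcium leaves the endoplasmic reticulum, and is used clinically as a muscle relaxant. The aryl hydrocarbon receptor is a ligand-activated transcription factor whose classical targets are the cytochrome P450 genes of the CYP1 family and genes for its own repressors. HIF-1, the hypoxia-inducible factor, drives genes of glucose uptake, glycolysis and lactate export.

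Library totals were 19029059 to 22859544 counts with vehicle and 16489684 to 18653374 with LPC + dantrolene. Levels are given in library order 1, 2, 3 as CPM, which are counts scaled to a common library size, on sizes corrected by the trimmed mean of M-values (TMM), and differences are log2 differences from edgeR. Marker sums are the exception and are CPM on total counts, without the TMM correction. TMM factors were 0.918, 0.900 and 0.879 with vehicle and 1.15, 0.863 and 1.11 with LPC + dantrolene. A larger factor would lower a sum on TMM sizes, so the order of libraries can differ there. The summed level of 11 interstitial cell and fibroblast markers was 58796 to 66028 CPM with vehicle and 59070, 71031 and 58529 CPM with LPC + dantrolene. Endothelial markers summed to 151 to 179 CPM with vehicle and 147, 104 and 146 CPM with LPC + dantrolene. Leukocyte markers reached at most 26.2 CPM in these 6 libraries, with PTPRC, CD3E and LYZ at 0, and of 6 epithelial markers CDH1, EPCAM, KRT14 and KRT18 were at 0, KRT8 had 2 counts in vehicle 3 and in LPC + dantrolene 3, and KRT5 had 40 counts in LPC + dantrolene 1 and 0 in the other 5 libraries. In bulk libraries fewer cells of a type and less RNA per cell cannot be told apart.

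The second LPC + dantrolene library stood apart. It held counts for 13371 genes, against 14546 to 16286 in the other 11 libraries, and 686 tested genes were at 0 in it, against 38 to 208. Its 10 most abundant genes took 17.1% of its counts, against 11.4% to 15.6%. It lay more than 2-fold below every other library at 398 genes and more than 2-fold above at 32, while the other libraries did so at 8 to 66 and 1 to 18 genes. Over genes, its log2 CPM correlated with those of the vehicle libraries at 0.944 and with those of its own group at 0.909, as means over the libraries concerned. Its value is given for the genes described in full, and the counts that changed without it by over 1.5 times are given both ways.

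Against vehicle, 824 of 13216 genes were higher and 119 were lower with LPC + dantrolene at an adjusted p under 0.05 (quasi-likelihood tests of edgeR, adjusted by Benjamini and Hochberg's method). These are 6.23% and 0.900% of the genes tested, and together 943 genes or 7.14%. With the isolation as a block the counts were 559 higher and 59 lower. Without the second LPC + dantrolene library they were 1706 higher (12.6% of 13583 genes) and 393 lower (2.89%). These shares apply to every list count given below without that library. Without the third the counts were 466 and 42, without the first 469 and 94, without the second vehicle library 489 and 55, without the third vehicle library 529 and 49, and without the second LPC library, which shares the estimate of spread, 601 and 74. Over all tested genes the median log2 difference was -0.08 on TMM sizes and 0.12 on total counts alone. The higher share of calls was 87.4% on TMM sizes and 94.4% on total counts.

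The higher and the lower genes were carried differently by the 3 libraries. At the 824 higher genes the median log2 difference from the vehicle mean was 2.00, 0.32 and 2.12 in replicates 1, 2 and 3. At the 119 lower genes it was -1.33, -1.17 and -1.89. All 3 LPC + dantrolene libraries lay above all 3 vehicle libraries at 361 of the 824 higher genes and below them at 89 of the 119 lower genes, where the same held for 4.71% and 5.74% of all genes tested. Replicate 2 alone was beyond the vehicle range at 366 of the higher and 98 of the lower genes. Replicate 2 was in the fit that made these calls.

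**Figure D1:**
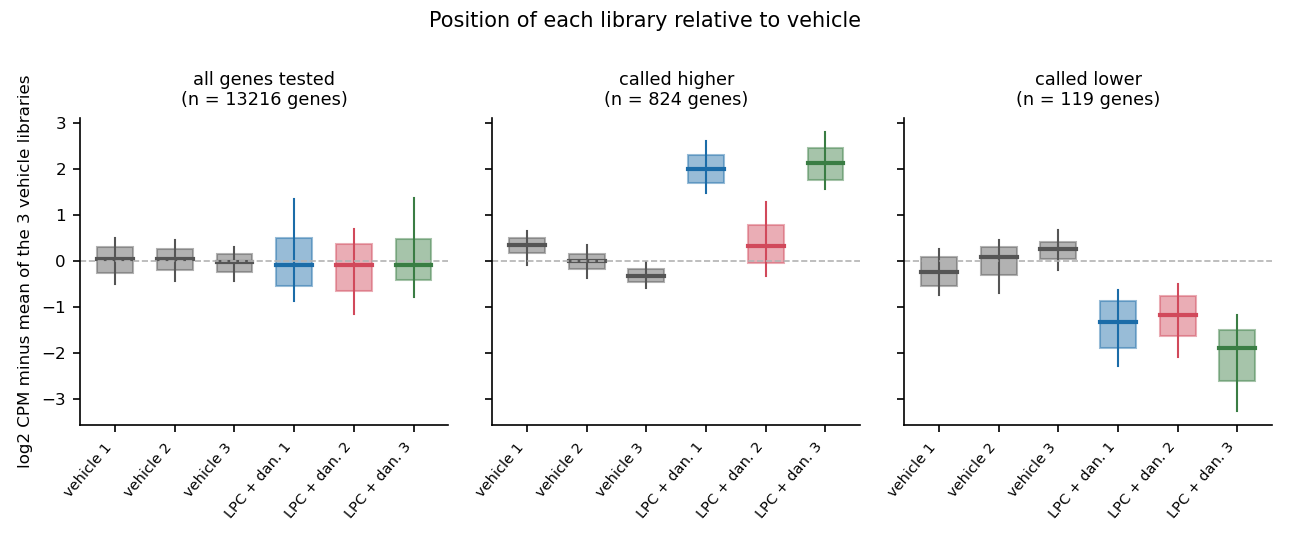
Position of each vehicle and LPC + dantrolene library on the log2 CPM scale relative to the mean of the 3 vehicle libraries, for all 13216 genes tested, the 824 called higher and the 119 called lower; bars span the interquartile range of the genes, lines the 10th to 90th percentile, and thick ticks mark the median. Replicate 2 has a median of 0.32 at the higher genes, where replicates 1 and 3 have 2.00 and 2.12, and of -1.17 at the lower genes, where they have -1.33 and -1.89; all 3 libraries were in the fit that made the calls.

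Each library was also left out of the call and then set against it. Of 1693 genes called higher without replicate 2, that library was above the vehicle mean at 42.4% and above all vehicle libraries at 24.0%, with a median log2 difference of -0.16, against 1.57 in the other 2 libraries. Of 392 genes called lower without replicate 2, it was below the vehicle mean at 61.2% and below all vehicle libraries at 31.6%, with a median of -0.13, against -1.19 in the other 2. At most genes called without it, in either direction, replicate 2 did not lie beyond vehicle on the side of the call. Of 468 genes called higher without replicate 1, replicate 1 was above the vehicle mean at 99.4%, with a median of 2.19. Of 461 genes called higher without replicate 3, replicate 3 was above it at 100% and had a median of 2.33. At the 94 genes called lower without replicate 1 and the 41 without replicate 3, the library left out was lower at 93.6% and 97.6%, with medians of -0.74 and -2.18. The calls made without replicate 1 or 3 include replicate 2, so these sets of genes differ in how they were chosen.

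The 15 higher genes with the smallest adjusted p that rose in all 3 pairs of one isolation were CYP1A1, CYP1B1, CXCL8, CYTIP, REV3L, LRRCC1, ESF1, KTN1, NSRP1, DMXL2, PLK4, VPS13C, FAM135A, UPF2 and CCDC88A. REV3L, the catalytic subunit of a translesion DNA polymerase, was at 2.24, 1.28 and 2.27 CPM with vehicle and at 22.1, 7.45 and 17.2 CPM with LPC + dantrolene, a log2 difference of 3.01 (adjusted p = 9.20e-07, edgeR). PLK4, the kinase that starts centriole duplication, was at 4.53, 5.08 and 3.02 CPM with vehicle and at 32.5, 7.33 and 39.3 CPM with LPC + dantrolene, a log2 difference of 2.65 (adjusted p = 5.32e-06, edgeR). In both genes every treated library was above vehicle and replicate 2 was the lowest of them. The 15 lower genes chosen in the same way were APLN, POLE, SLC16A3, DHRS3, MYOM1, SLC2A5, GDF6, ACTA1, CSDC2, HSPB7, ANKRD1, CCN3, HK2, LMCD1 and BNIP3. CSDC2, ANKRD1, CCN3 and LMCD1 had log2 differences of -1.88, -1.82, -1.72 and -1.79, and the last 3 missed the threshold with DESeq2 (adjusted p = 0.106, 0.0673 and 0.0916).

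Aryl hydrocarbon receptor genes were higher with LPC + dantrolene. Of 14 listed targets 9 were tested and 6 were higher (66.7%, against 6.23% of all genes tested). None was lower, and the median log2 difference of the 9 was 1.59, against -0.08 over all genes tested. The list median was 1.96, 0.84 and 1.88 in the 3 libraries, so replicate 2 moved with the others here at a smaller size. The count was 5 to 6 when any 1 of the 12 libraries was left out. Earlier results of these data were known when the list was chosen, and the study names CYP1A1 and CYP1B1 as its top differential genes. The 3 tested targets that did not pass were SLC7A5, ALDH3A1 and EREG, with log2 differences of 0.20, 0.69 and 1.14.

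CYP1A1 (ENSSSCG00000001906, chromosome 7, 58802887 to 58809155 in RefSeq's Sscrofa11.1 annotation), a monooxygenase and the classical readout of the receptor, was at 0.238, 0.467 and 0.0581 CPM with vehicle and at 43.9, 22.6 and 48.8 CPM with LPC + dantrolene. The vehicle values stand for 5, 8 and 1 counts. The groups were far apart, and even the lowest treated library had 364 counts. CYP1A1 differed by 7.21 on the log2 scale (standard error 0.58, adjusted p = 1.32e-16, edgeR). With dantrolene alone CYP1A1 was at 13.5, 42.7 and 53.0 CPM, and with LPC alone at 0.615, 0 and 0 CPM.

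CYP1B1 (ENSSSCG00000033844), a related monooxygenase that also metabolizes estrogens and retinoids, was at 22.6, 40.8 and 4.88 CPM with vehicle and at 945, 385 and 2493 CPM with LPC + dantrolene. The groups did not overlap, though the treated libraries differed widely among themselves. It differed by 5.81 on the log2 scale (standard error 0.52, adjusted p = 1.29e-14, edgeR).

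The receptor's feedback genes rose less. AHRR, the receptor's repressor, was at 19.5, 45.8 and 18.5 CPM with vehicle and at 83.1, 75 and 94.4 CPM with LPC + dantrolene. All treated libraries were above the highest vehicle library, with a log2 difference of 1.59 (adjusted p = 0.000721, edgeR). TIPARP, an ADP-ribosyltransferase that also represses the receptor, was at 24.1, 34.7 and 15.6 CPM with vehicle and at 92.1, 42.1 and 109 CPM with LPC + dantrolene, a log2 difference of 1.71 (adjusted p = 0.000263, edgeR). Replicate 2 was the lowest treated library and still lay above the vehicle range.

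NQO1, a quinone reductase under both this receptor and NRF2, was at 86.3, 59.0 and 77.7 CPM with vehicle and at 127, 277 and 157 CPM with LPC + dantrolene. Here replicate 2 was the highest library and the groups did not overlap. Its log2 difference was 1.33 (adjusted p = 0.00346, edgeR). Without the second vehicle library the call was lost (adjusted p = 0.0750). NFE2L2, which encodes NRF2, was at 64.0, 49.7 and 43.8 CPM with vehicle and at 206, 60.4 and 224 CPM with LPC + dantrolene, a log2 difference of 1.64 (adjusted p = 0.000509, edgeR). Replicate 2 lay inside the vehicle range, and NFE2L2 was the only one of the 6 whose groups overlapped.

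**Figure D2:**
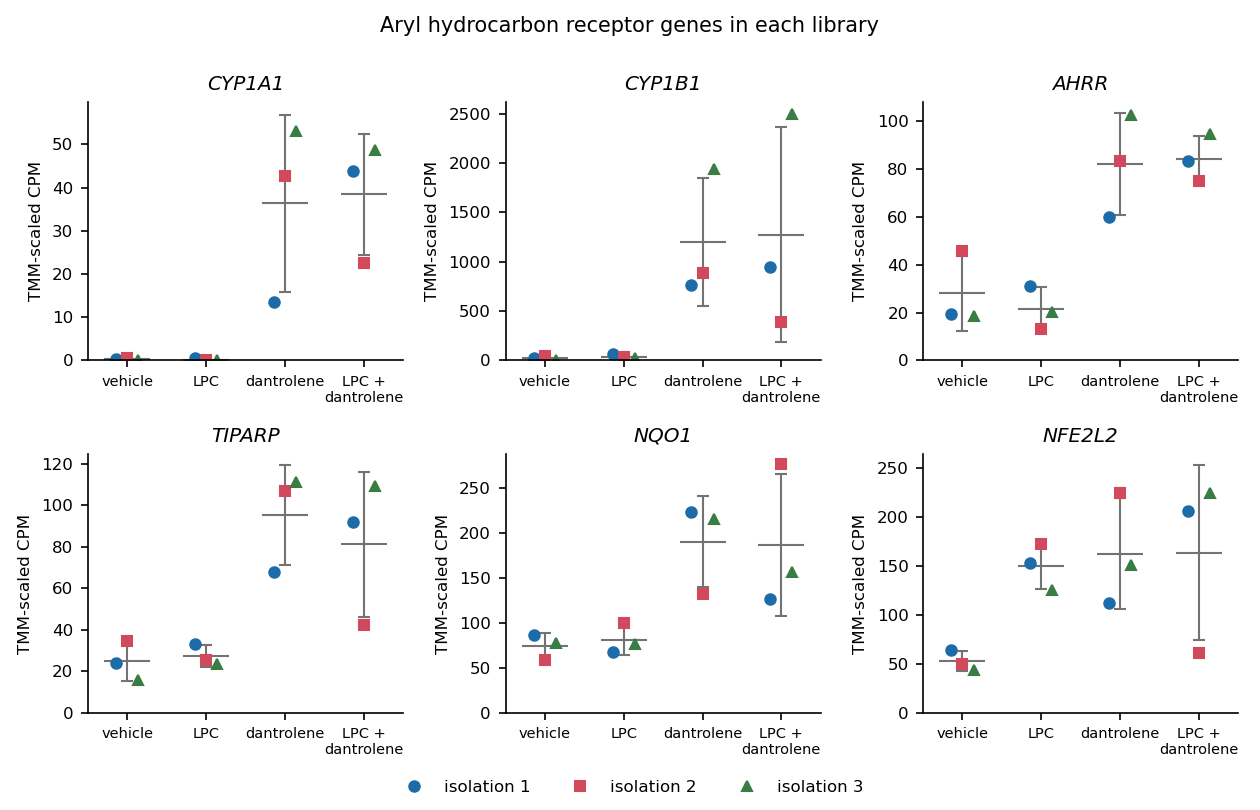
TMM-scaled CPM (linear axis) of 6 aryl hydrocarbon receptor genes in the 12 libraries by treatment; points are libraries, coloured by primary isolation, and grey ticks and bars are the group mean and SD of 3 libraries. CYP1A1 and CYP1B1 are near the axis with vehicle and LPC and at 22.6 to 48.8 and 385 to 2493 CPM with LPC + dantrolene, while NFE2L2 is also raised with LPC alone.

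Of 19 tested NRF2 targets, NQO1 and SLC7A11 were higher (10.5%, against 6.23% of all genes tested). None was lower, and the list median was 0.25. SLC7A11, the cystine importer that feeds glutathione synthesis, was at 13.5, 11.7 and 7.21 CPM with vehicle and at 74.4, 19.1 and 76.2 CPM with LPC + dantrolene. All 3 treated libraries were above vehicle, with replicate 2 much nearer to it, and the log2 difference was 2.38 (adjusted p = 9.56e-06, edgeR). The stress enzymes HMOX1 and TXNRD1 had log2 differences of -0.43 and 0.19 that did not pass the test. Without replicate 2 of the combination 4 targets were higher, and without the second vehicle library 1 was.

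Several genes of glucose use were lower. Of 18 tested genes of glycolysis and glucose transport 7 were lower (38.9%, against 0.900% of all genes tested) and none was higher. This list was chosen with earlier results of these data known. The study's own pathway analysis had reported lower glycolysis genes with LPC + dantrolene, so the list is not independent of these libraries. At 13 all 3 LPC + dantrolene libraries lay below all vehicle libraries, as they did at 5.74% of all genes tested. The median was -0.87, with -1.52, -0.41 and -0.97 in the 3 libraries. The 7 were SLC16A3, HK2, PFKFB3, LDHA, HK1, TPI1 and GAPDH. GAPDH has many near-identical pseudogene copies and ALDOA had 0 to 1 counts, so both are uncertain. The GAPDH call was also lost in 14 of 19 alternatives. The count was 12 without the second LPC + dantrolene library, where 2.89% of all genes tested were lower. It was 2 without the first, 3 without the third, 2 without the second vehicle library and 4 without the third. The list median stayed between -1.11 and -0.65 under every alternative run.

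SLC16A3, the exporter of lactate (chromosome 12, 796882 to 807480), was at 161, 256 and 158 CPM with vehicle and at 41.8, 62.9 and 56.1 CPM with LPC + dantrolene. The groups were well separated and replicate 2 lay close to the others. The log2 difference was -1.84 (standard error 0.34, adjusted p = 7.63e-05, edgeR). HK2, the inducible hexokinase, was at 74.6, 133 and 64.2 CPM with vehicle and at 26.0, 34.4 and 34.1 CPM with LPC + dantrolene. It fell by 1.52 on the log2 scale (adjusted p = 0.000847, edgeR), with an adjusted p of 0.0649 when the second vehicle library, the highest, was left out.

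PFKFB3, which makes the activator of phosphofructokinase, was at 88.1, 96.1 and 77.2 CPM with vehicle and at 17.9, 52.6 and 28.2 CPM with LPC + dantrolene. Its log2 difference was -1.41 (adjusted p = 0.00234, edgeR), and the adjusted p was 0.0619 without the first treated library, which was the lowest. LDHA, lactate dehydrogenase, was at 1430.3, 1512 and 1113 CPM with vehicle and at 337, 939.9 and 590.0 CPM with LPC + dantrolene. Its groups did not overlap and its log2 difference was -1.12 (adjusted p = 0.0247, edgeR). The LDHA call was lost without either of the first 2 vehicle libraries and without the first or the third treated library, at adjusted p values of 0.0929 to 0.245. SLC2A5, a fructose transporter outside the list, was at 50.3, 102 and 93.6 CPM with vehicle and at 19.3, 35.6 and 17.5 CPM with LPC + dantrolene, a log2 difference of -1.77 (adjusted p = 0.000120, edgeR).

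Other HIF-1 target genes were lower in part. The study's pathway analysis had reported lower HIF-1 pathway genes with LPC + dantrolene, so this list is likewise not independent of these libraries. Of 25 tested, 6 were lower (24%, against 0.900% of all genes tested), among them BNIP3, APLN, ADM, AK4 and ANKRD37. ANGPTL4 was higher (4%, against 6.23%). At 12 all treated libraries were below all vehicle libraries, as they were at 5.74% of all genes tested. The list median was -0.45, with -0.54, -0.86 and -0.37 in the 3 libraries, and -0.22 on total counts, where 2 were lower. With the second treated library left out 8 were lower and 2 higher, where 2.89% and 12.6% of all genes tested were. The lower count was 3 without the third treated library, 4 without the first, 2 without the second vehicle library, 3 without the third vehicle library, 3 without the second LPC library, and 4 without the first LPC or first dantrolene library, and it was 3 with the isolation as a block. BNIP3, a mitophagy receptor, was at 384, 479 and 350 CPM with vehicle and at 84.1, 201 and 139 CPM with LPC + dantrolene. BNIP3 groups were well apart, with a log2 difference of -1.52 (adjusted p = 0.00104, edgeR). BNIP3 and APLN kept the call in all 19 alternatives, while ADM lost it in 12 and AK4 in 15. With only the 2 groups compared edgeR called 2 of the list lower. VEGFA, which encodes the endothelial growth factor, had a log2 difference of -0.27 that did not pass the test (adjusted p = 0.890, edgeR).

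APLN (chromosome X, 106236746 to 106246563), the precursor of the vasoactive peptide apelin, was at 23.2, 35.3 and 24.7 CPM with vehicle and at 7.73, 4.35 and 7.57 CPM with LPC + dantrolene. Replicate 2 was the lowest library, and the groups were well apart. The log2 difference was -2.08 (standard error 0.36, adjusted p = 2.44e-05, edgeR). Among 23 growth factors and vasoactive peptides tested, APLN and PDGFD were lower (8.7%, against 0.900% of all genes tested). FGF2 was higher (4.35%, against 6.23%), and the list median was -0.42. PDGFD, at an adjusted p of 0.0478, was lost in 17 of 19 alternatives, the block among them. The lower count was 4 without the second treated library, where 2 were higher, 3 without the first, 2 without the second vehicle library and 1 without any 1 of the other libraries. FGF2, a fibroblast mitogen, was at 16.6, 10.5 and 9.18 CPM with vehicle and at 75.5, 14.0 and 84.5 CPM with LPC + dantrolene, a log2 difference of 2.26 (adjusted p = 2.47e-05, edgeR) with replicate 2 inside the vehicle range.

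DHRS3 (chromosome 6, 72556234 to 72599233), which reduces retinaldehyde to retinol and is itself induced by retinoic acid, was at 159, 94.5 and 164 CPM with vehicle and at 30.0, 62.9 and 21.9 CPM with LPC + dantrolene. No treated library reached the vehicle range. The log2 difference was -1.87 (standard error 0.35, adjusted p = 8.77e-05, edgeR). DHRS3 was the only one of 15 tested retinoid genes to pass (6.67%, against 0.900% of all genes tested called lower). Without the second treated library 1 gene was also higher. The list median was -0.14 on TMM sizes and 0.06 on total counts.

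**Figure D3:**
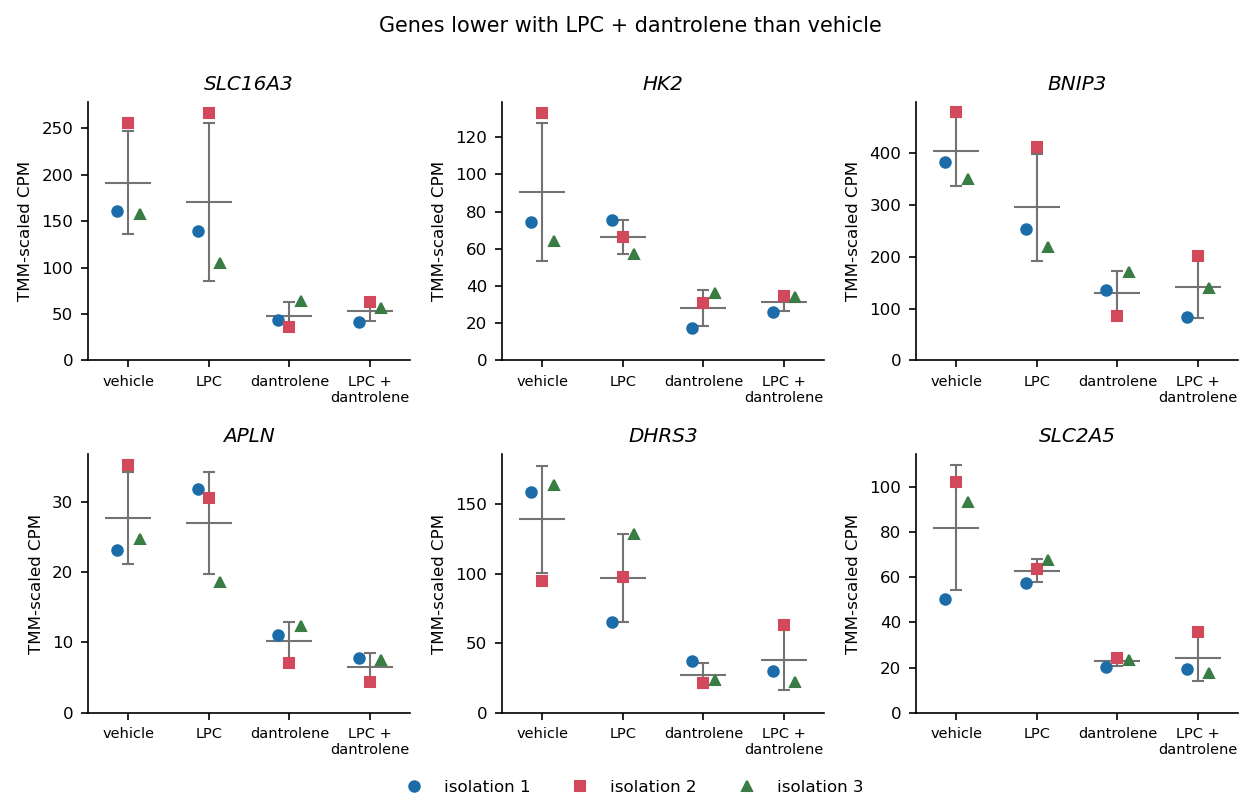
TMM-scaled CPM (linear axis) of SLC16A3, HK2, BNIP3, APLN, DHRS3 and SLC2A5 in the 12 libraries by treatment; points are libraries, coloured by primary isolation, and grey ticks and bars are the group mean and SD of 3 libraries. In each panel the 3 LPC + dantrolene libraries lie below the 3 vehicle libraries, and the dantrolene libraries lie at a like level.

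Of 31 tested genes of sterol and fatty acid synthesis 7 were lower (22.6%, against 0.900% of all genes tested). Among them were SCD, INSIG1, LSS, SREBF1 and TM7SF2. None was higher, and at 14 the treated libraries were all below vehicle, as they were at 5.74% of all genes tested. The list median was -0.79, with -0.73, -0.50 and -1.03 in the 3 libraries, and it stayed between -0.85 and -0.54 under every alternative run. SCD, the desaturase that makes oleate, was at 228, 290 and 326 CPM with vehicle and at 73.7, 196 and 92.8 CPM with LPC + dantrolene, a log2 difference of -1.22 (adjusted p = 0.00915, edgeR). INSIG1, which holds the sterol-sensing factors in the endoplasmic reticulum, was at 82.4, 171 and 160.3 CPM with vehicle and at 43.4, 90.7 and 40.4 CPM with LPC + dantrolene. In INSIG1 replicate 2 lay above the lowest vehicle library, so the groups overlapped, at a log2 difference of -1.24 (adjusted p = 0.00767, edgeR). The calls of this list depended on single libraries. Of the 31, 0 passed without the third vehicle or the third treated library, 1 without the second vehicle library and 4 with the isolation as a block. With the second treated library left out 14 were lower, where 2.89% of all genes tested were. SCD and INSIG1 each missed the threshold without the second or the third vehicle library and without the first or the third treated library, at adjusted p values of up to 0.146 and 0.160. TM7SF2 lost the call in 11 of 19 alternatives and SREBF1 in 6. With all libraries in the fit 19 of the 31 were lower at an unadjusted p under 0.05 (edgeR).

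Muscle genes were among the 15 lower genes with the smallest adjusted p. MYOM1, a protein of the sarcomere's M-band, was at 17.9, 6.37 and 13.5 CPM with vehicle and at 3.05, 3.67 and 1.5 CPM with LPC + dantrolene, a log2 difference of -2.21 (adjusted p = 0.000104, edgeR). HSPB7, a small heat shock protein of muscle, was at 29.5, 52.8 and 72.6 CPM with vehicle and at 20.8, 17.1 and 7.97 CPM with LPC + dantrolene, a log2 difference of -1.76 (adjusted p = 0.000359, edgeR). Neither gene's groups overlapped. ACTA1, the skeletal muscle actin, was at 332, 274 and 463 CPM with vehicle and at 63.4, 180 and 17.8 CPM with LPC + dantrolene, a log2 difference of -2.04 (adjusted p = 0.000199, edgeR) that was lost with DESeq2 (adjusted p = 0.0800).

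Of 22 smooth muscle and myofibroblast contractile genes, DES and SORBS2 were lower (9.09%, against 0.900% of all genes tested). None was higher, with a list median of -0.63 and library values of -0.56, -0.31 and -1.15. Without the second treated library 10 were lower, where 2.89% of all genes tested were. The count was 1 without the third treated or the third vehicle library or with the block. ACTA2, the smooth muscle actin that marks myofibroblasts, was at 15914, 17218 and 23132 CPM with vehicle and at 8982, 23558 and 6248 CPM with LPC + dantrolene. Replicate 2 was above the whole vehicle range while replicates 1 and 3 were below it. The log2 difference was -0.54 and did not pass the test (adjusted p = 0.569, edgeR), and without replicate 2 it was -1.24 (adjusted p = 0.00163).

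Of 28 fibrillar matrix genes, LUM was higher and CCN2 was lower, which is 3.57% in each direction against 6.23% and 0.900% of all genes tested, and the median was -0.26. LUM, the collagen-binding proteoglycan lumican and also one of the fibroblast markers, was at 140, 70.9 and 115 CPM with vehicle and at 340, 160 and 332 CPM with LPC + dantrolene. All treated libraries were above vehicle, at a log2 difference of 1.35 (adjusted p = 0.00420, edgeR) that was lost without the second vehicle library (adjusted p = 0.122). COL1A1 and COL3A1, the main fibrillar collagens, had log2 differences of -0.12 and -0.25 that did not pass. Without the second treated library 3 matrix genes were higher and 5 lower. None was higher without the second vehicle library, and 2 were without the first vehicle, the third LPC or the third dantrolene library. None was lower with the block or without the first or the third vehicle, the second LPC, or the first or the third treated library.

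Of 20 tested osteogenic and mineralization regulators 4 were lower (SPP1, HDAC9, TNFRSF11B and MGP), which is 20% against 0.900% of all genes tested, with a list median of -0.42. With the isolation as a block 1 was lower, TNFRSF11B (adjusted p = 0.0227, edgeR), on total counts 1 was, and with only the 2 groups compared edgeR called 0. TNFRSF11B, the decoy receptor osteoprotegerin, was at 8.97, 11.9 and 12.3 CPM with vehicle and at 6, 3.42 and 1.65 CPM with LPC + dantrolene, with no overlap and a log2 difference of -1.58 (adjusted p = 0.00373, edgeR). Without the third treated library TNFRSF11B missed the threshold (adjusted p = 0.119), as did all 4, while 6 were lower without the second, 2 without the first, 1 without the first vehicle library and 2 without the second or the third vehicle or the second LPC library. RUNX2, the master factor of osteoblasts, had a log2 difference of 0.40 (adjusted p = 0.753, edgeR), and SOX9, that of cartilage, of -0.10 (adjusted p = 0.973, edgeR). GDF6, a bone morphogenetic protein outside the list, was at 20.4, 33.4 and 41.2 CPM with vehicle and at 13.0, 8.57 and 4.11 CPM with LPC + dantrolene, a log2 difference of -1.88 (adjusted p = 0.000171, edgeR).

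Cohesin and coiled-coil genes were higher. Cohesin is the ring that holds sister chromatids together and folds chromatin into loops. Of 14 tested genes for cohesin and its regulators 9 were higher (64.3%, against 6.23% of all genes tested). None was lower, and the median was 1.75, with 2.04, 0.57 and 2.12 in the 3 libraries. The count was 8 to 10 with any 1 library left out. Earlier results of these data were known when the list was chosen. The study names STAG2, SMC3 and NIPBL among its strongly differential genes, so the list is not independent of these libraries. Its 9 higher genes include SMC6, which is not a subunit of cohesin. SMC3, a core subunit of the ring, was at 11.3, 9.11 and 8.08 CPM with vehicle and at 59.1, 16.9 and 80.7 CPM with LPC + dantrolene. Replicate 2 was above every vehicle library but far below the other treated libraries, and the log2 difference was 2.46 (adjusted p = 7.29e-06, edgeR). NIPBL, which loads the ring onto DNA, was at 7.49, 6.48 and 5.52 CPM with vehicle and at 42.3, 12.1 and 51.9 CPM with LPC + dantrolene, a log2 difference of 2.45 (adjusted p = 7.29e-06, edgeR). STAG2, another subunit, was at 7.53, 7.07 and 7.5 CPM with vehicle and at 44.9, 16.6 and 58.9 CPM with LPC + dantrolene, a log2 difference of 2.45 (adjusted p = 6.26e-06, edgeR). In all 3 genes the second treated library lay between vehicle and the other replicates.

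Golgins and related coiled-coil proteins tether vesicles at the Golgi or organize the centrosome. Their list, which also holds VPS13 genes and the kinases ROCK1 and ROCK2, was likewise chosen with earlier results known. VPS13A, VPS13B, VPS13C, ROCK1 and ROCK2 are among its genes called higher. The study names KTN1 (as KTN), EEA1, PCM1 and VPS13C among its strongly differential genes. Of 26 tested genes of the list, 19 were higher (73.1%, against 6.23% of all genes tested) and none was lower. The median was 1.87, with library values of 2.10, 0.57 and 2.41, and 17 to 19 were higher with any 1 library left out. KTN1, a kinesin anchor of the endoplasmic reticulum, was at 21.6, 16.2 and 11.2 CPM with vehicle and at 82.7, 47.8 and 147 CPM with LPC + dantrolene. All treated libraries were above vehicle, and the log2 difference was 2.50 (adjusted p = 4.38e-06, edgeR). EEA1, which tethers early endosomes, was at 14.8, 12.2 and 9.12 CPM with vehicle and at 57.9, 29.1 and 89.6 CPM with LPC + dantrolene, a log2 difference of 2.29 (adjusted p = 1.22e-05, edgeR). GOLGB1, the golgin giantin, was at 20.4, 10.7 and 11 CPM with vehicle and at 88.7, 21.9 and 86.2 CPM with LPC + dantrolene, with replicate 2 just above the highest vehicle library and a log2 difference of 2.22 (adjusted p = 3.19e-05, edgeR).

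In the ubiquitin and chromatin lists the median of replicate 2 was below vehicle. Of 19 large ubiquitin ligases and proteases 8 were higher (42.1%, against 6.23% of all genes tested). Their median was 0.74, with library values of 1.26, -0.47 and 1.16. BIRC6, a giant ubiquitin ligase that restrains cell death, was at 21.8, 13.1 and 12.7 CPM with vehicle and at 89.6, 19.3 and 76.0 CPM with LPC + dantrolene, so replicate 2 was within the vehicle range (log2 difference 1.95, adjusted p = 0.000110, edgeR). Of 29 chromatin remodellers and methyltransferases 10 were higher (34.5%), with a median of 0.41 and library values of 0.90, -0.30 and 0.84. ATRX, a remodeller of heterochromatin, was at 7.34, 6.48 and 3.31 CPM with vehicle and at 27.4, 6.90 and 37.1 CPM with LPC + dantrolene, again with replicate 2 within the vehicle range (log2 difference 2.06, adjusted p = 0.000139, edgeR). Both counts rose to 15 without the second treated library, where 12.6% of all genes tested were higher. The chromatin count was 4 without the second vehicle or the first treated library.

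**Figure D4:**
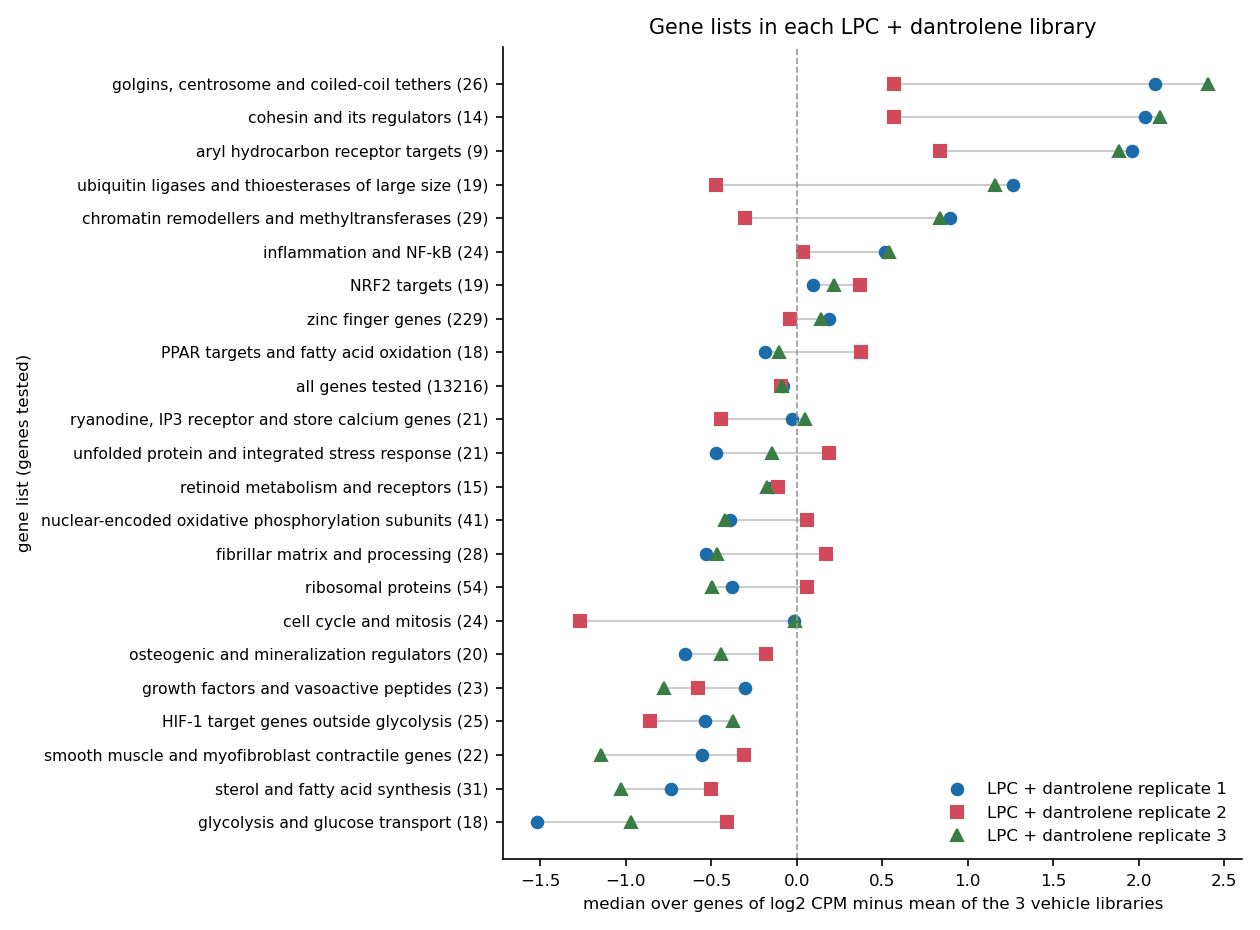
Median over the genes of each list of log2 CPM minus the mean of the 3 vehicle libraries, for each LPC + dantrolene library; the number of genes tested is in parentheses and the grey line joins the 3 libraries. Replicates 1 and 3 lie near each other in most lists, and replicate 2 is at 0.57 in the cohesin list, where they are at 2.04 and 2.12, and at -1.27 in the cell cycle list, where both are at -0.01.

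The higher genes were long. The median genomic span was 67213 bp for the genes called higher, 16474 bp for those called lower and 30551.5 bp for all genes tested, over the 89.2%, 84.9% and 81.7% of them that had a position in the RefSeq table. With genes ordered by span and cut into 10 groups of like size, 1.3% were called higher in the shortest group (76 to 5497 bp), 13.9% in group 9 (93565 to 162204 bp) and 9.17% in the longest. In replicates 1 and 3 the median log2 difference from vehicle went from -0.32 and -0.36 in the shortest group to 0.18 and 0.13 in the longest. In replicate 2 it went from -0.05 to -0.23. The part that transcript length or RNA quality has in the higher set was not tested.

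At the genes outside the range of all other libraries, replicate 2 was often at 0. CDK1, the mitotic kinase, had 69, 52 and 23 counts with vehicle and 119, 0 and 103 with LPC + dantrolene. IFIT2, an interferon-induced gene, had 82, 232 and 90 counts with vehicle and 353, 0 and 136 with LPC + dantrolene. MELK, KIF11, ASPM and CENPF, genes of mitosis and its control, were likewise at 0 in replicate 2 with 18 to 92 counts in the other 5 libraries. In the other direction NOXA1, an activator of NADPH oxidase, had 0 counts in all vehicle libraries and 0, 47 and 12 with LPC + dantrolene. These genes were chosen after their values were seen. The authors had adjusted the counts for batch effects, so a 0 here is a value after that adjustment.

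Of 24 tested cell cycle genes 5 were lower (MCM2, MCM3, MCM5, E2F1 and KIF20A) and CENPE was higher. These are 20.8% and 4.17%, against 0.900% and 6.23% of all genes tested. The median was -0.35, with -0.01, -1.27 and -0.01 in the 3 libraries, and 0.05 when replicate 2 was left out. MCM2, a subunit of the replicative helicase, was at 12.1, 20.6 and 18.7 CPM with vehicle and at 8.63, 4.85 and 5.72 CPM with LPC + dantrolene, with no overlap and a log2 difference of -1.42 (adjusted p = 0.00407, edgeR). POLE, the leading-strand DNA polymerase outside the list, was at 8.49, 10.5 and 13.0 CPM with vehicle and at 3.37, 1.06 and 1.5 CPM with LPC + dantrolene, a log2 difference of -2.42 (adjusted p = 3.82e-05, edgeR). Both replication genes were low in all 3 treated libraries. The count of lower cell cycle genes was 1 with the block or without the second vehicle or the third treated library, 2 without the third vehicle or the second LPC library, 3 without the first treated, first LPC or first dantrolene library, and 6 without the second treated library. With the second treated library left out 4 were higher, where 12.6% of all genes tested were higher and 2.89% lower. CENPE missed the threshold without the second or the third vehicle or the third treated library. E2F1, MCM3 and MCM5 lost their calls in 15, 11 and 10 of 19 alternatives.

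Among 24 inflammation and NF-kB genes CXCL8, PTGS2 and IL6R were higher (12.5%, against 6.23% of all genes tested). SLPI was lower (4.17%, against 0.900%) and the median was 0.31. CXCL8, the neutrophil chemokine interleukin-8, was at 1.05, 0.584 and 0.116 CPM with vehicle and at 8.10, 2.11 and 43.0 CPM with LPC + dantrolene. All treated libraries were above vehicle but replicate 3 was far above the others, and the log2 difference was 4.88 (standard error 0.63, adjusted p = 6.65e-08, edgeR). IL6R, a receptor of interleukin-6, was at 1.91, 8.29 and 4.94 CPM with vehicle and at 13.6, 16.1 and 10.9 CPM with LPC + dantrolene, a log2 difference of 1.43 (adjusted p = 0.00974, edgeR). The IL6R call was lost without the first vehicle library (adjusted p = 0.158), and with that library left out 1 gene of the list was higher, against 6 without the second treated library and 2 without the first or the third treated, the third vehicle or the second LPC library. With the block 2 genes were higher and none was lower. SLPI, a protease inhibitor, missed the threshold with DESeq2, with the block, and without the first vehicle, the second LPC or the first treated library. PTGS2 lost its call in 7 of 19 alternatives, the block among them. IL6 and CCL2, the main cytokine and monocyte chemokine of the list, had log2 differences of 0.03 and 0.35 that did not pass.

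Among 21 tested genes of calcium release and entry ITPR2, TRPC1 and ATP2B1 were higher (14.3%, against 6.23% of all genes tested). The median was -0.12 on TMM sizes and 0.11 on total counts. RYR3, a ryanodine receptor and so of dantrolene's target family, was at 32.2, 26.9 and 21.2 CPM with vehicle and at 29.9, 10.6 and 28.6 CPM with LPC + dantrolene. Replicate 2 was the lowest library, and the log2 difference of -0.22 did not pass the test (adjusted p = 0.928, edgeR). TRPC1, a calcium-permeable channel of the plasma membrane, was at 4.44, 2.74 and 1.16 CPM with vehicle and at 10.9, 3.67 and 15.1 CPM with LPC + dantrolene, a log2 difference of 1.82 (adjusted p = 0.00164, edgeR), with replicate 2 inside the vehicle range. No gene of the list was higher without the third treated library, where TRPC1 had an adjusted p of 0.0524, and 1 was with the block or without the second or the third vehicle library, the first or second LPC library or the first treated library. Without the second treated library 3 were higher and 1 was lower.

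Against dantrolene alone, 2 of 13216 genes were higher (0.0151%) and 1 was lower (0.00757%) with LPC + dantrolene, and 102 and 67 had an unadjusted p under 0.05. Both higher genes are targets of the fatty acid sensing PPAR receptors. ANGPTL4 (chromosome 2, 70905767 to 70912892), a secreted inhibitor of lipoprotein lipase, was at 10.9, 18.7 and 23.6 CPM with dantrolene and at 121, 145 and 115 CPM with LPC + dantrolene. With vehicle it was at 20.7, 51.2 and 33.6 CPM and with LPC at 123, 124 and 85.7 CPM, and replicate 2 was the highest of the treated libraries. The log2 difference from dantrolene was 2.84 (standard error 0.35, adjusted p = 7.59e-08, edgeR) and that from vehicle 1.85 (adjusted p = 6.69e-05, edgeR). Its difference from LPC alone was 0.20 with a standard error of 0.33 and did not pass.

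PDK4 (chromosome 9, 75246956 to 75260134), the kinase that closes pyruvate dehydrogenase, was at 0.328, 1.98 and 1.04 CPM with dantrolene and at 10.4, 2.98 and 10.1 CPM with LPC + dantrolene. With vehicle PDK4 was at 1.48, 1.58 and 0.930 CPM and with LPC at 15.3, 15.6 and 11.3 CPM. All LPC + dantrolene libraries were above those of dantrolene and of vehicle. The log2 difference from dantrolene was 2.77 (standard error 0.46, adjusted p = 0.000272, edgeR). The call was lost without the first dantrolene library (adjusted p = 0.0988) or the second LPC library (adjusted p = 0.0740). It was also lost on total counts (adjusted p = 0.0870, edgeR) and with only the 2 groups compared (adjusted p = 0.99978, edgeR). Against vehicle the log2 difference of PDK4 was 2.55 (adjusted p = 4.39e-05, edgeR). The lower gene, ENSSSCG00000048802, which has no symbol, had 0.0526, 0.0621 and 0 CPM with LPC + dantrolene and 2.52, 1.87 and 2.84 CPM with dantrolene, and it was not called with the block (adjusted p = 0.172, edgeR). These counts of 2 and 1 were 1 to 5 and 0 to 1 with any 1 library left out.

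Of 18 tested PPAR targets and fatty acid oxidation genes ANGPTL4, PDK4 and ACADM were higher against vehicle (16.7%, against 6.23% of all genes tested). TXNIP was lower (5.56%, against 0.900%). The list median was -0.01, with 0.19 on total counts. ACADM, a dehydrogenase of medium-chain fatty acids, was at 11.8, 9.99 and 9.70 CPM with vehicle and at 44.5, 14.0 and 34.2 CPM with LPC + dantrolene, a log2 difference of 1.56 (adjusted p = 0.00101, edgeR). TXNIP, a brake on glucose uptake, was at 193, 108 and 266 CPM with vehicle and at 62.6, 97.3 and 10.5 CPM with LPC + dantrolene, a log2 difference of -1.73 (adjusted p = 0.00122, edgeR; 0.187 with DESeq2). PLIN2 and CPT1A, for lipid droplets and mitochondrial fatty acid entry, had log2 differences of 0.83 and 0.04 that did not pass. Leaving out the second treated library gave 4 higher and 2 lower genes, where 12.6% and 2.89% of all genes tested were called.

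Against LPC alone, 29 genes were higher (0.219%) and 38 lower (0.288%), and 442 and 432 had an unadjusted p under 0.05. On total counts 5 were higher and 2 lower, so the higher share of calls was 43.3% on TMM sizes and 71.4% on total counts, and with the block 9 were higher and 10 lower. The 5 higher genes with the smallest adjusted p were CYP1A1, CYP1B1, CXCL8, AHRR and TENM4. CYP1A1 and CYP1B1 differed by 7.49 (adjusted p = 4.45e-17, edgeR) and 5.11 (adjusted p = 1.27e-12, edgeR) on the log2 scale. AHRR differed by 1.97 (adjusted p = 0.000528, edgeR), with LPC libraries at 31.1, 13.2 and 20.1 CPM, and lost the call without the second LPC library (adjusted p = 0.124). The counts moved with single libraries: without the second LPC library they were 3 and 6, without the first LPC library 12 and 19, without the third 16 and 11, without the third treated library 15 and 11, without the second 53 and 87, without the first 38 and 82, and without the first or second vehicle library 19 and 19 or 22 and 22.

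The 5 lower genes against LPC with the smallest adjusted p were NPR3, APLN, HDAC9, ESM1 and SORBS2. NPR3 (chromosome 16), the clearance receptor of natriuretic peptides, was at 67.7, 68.4 and 111 CPM with LPC and at 27.9, 10.9 and 17.0 CPM with LPC + dantrolene. The groups did not overlap, and vehicle was at 31.1, 22.7 and 29.7 CPM. The log2 difference from LPC was -2.14 (standard error 0.36, adjusted p = 0.000145, edgeR) and that from vehicle, -0.58, did not pass. APLN differed from LPC by -2.04 (adjusted p = 0.000401, edgeR), with LPC libraries at 31.9, 30.6 and 18.6 CPM, which overlap those of vehicle. SLC16A3 differed by -1.67 (adjusted p = 0.00310, edgeR). The SLC16A3 call was lost on total counts, with only the 2 groups compared and without the second LPC library, at adjusted p values of up to 0.287 (edgeR).

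HDAC9, a class II histone deacetylase, was at 7.48, 10.5 and 17.8 CPM with LPC and at 3.95, 1.30 and 1.65 CPM with LPC + dantrolene, a log2 difference of -2.37 (adjusted p = 0.000623, edgeR). ESM1, the secreted proteoglycan endocan, was at 24.2, 22.3 and 43.6 CPM with LPC and at 12.2, 3.73 and 5.32 CPM with LPC + dantrolene, a log2 difference of -2.08 (adjusted p = 0.000696, edgeR). SORBS2, an adaptor of actin fibres, was at 28.1, 21.3 and 45.8 CPM with LPC and at 13.6, 7.02 and 4.06 CPM with LPC + dantrolene, a log2 difference of -1.95 (adjusted p = 0.00106, edgeR). In all 3 genes the treated libraries lay below every LPC library. On total counts all 3 missed the threshold, with adjusted p values of 0.0525, 0.0827 and 0.0750, and SORBS2 also missed it without the third treated library (adjusted p = 0.0568).

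CXCL8 and TENM4 were above LPC less stably. CXCL8 was at 2.56, 1.47 and 0.463 CPM with LPC, and replicate 2 of the combination lay within that range. Its log2 difference of 3.56 (adjusted p = 7.82e-05, edgeR) became 1.77 without the third treated library (adjusted p = 0.308). Its adjusted p was 0.210 without the second LPC library and 0.0753 with the block. The CXCL8 call was also lost with DESeq2 (adjusted p = 0.142) and on total counts (adjusted p = 0.0668, edgeR). TENM4, a teneurin of the cell surface, was at 1.59, 3.09 and 2.78 CPM with LPC and at 6.94, 13.8 and 19.3 CPM with LPC + dantrolene, without overlap. The log2 difference of TENM4 was 2.42 (adjusted p = 0.00101, edgeR), with an adjusted p of 0.0795 without the first and 0.124 without the second LPC library. On total counts the adjusted p of TENM4 was 0.0653 (edgeR).

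**Figure D5:**
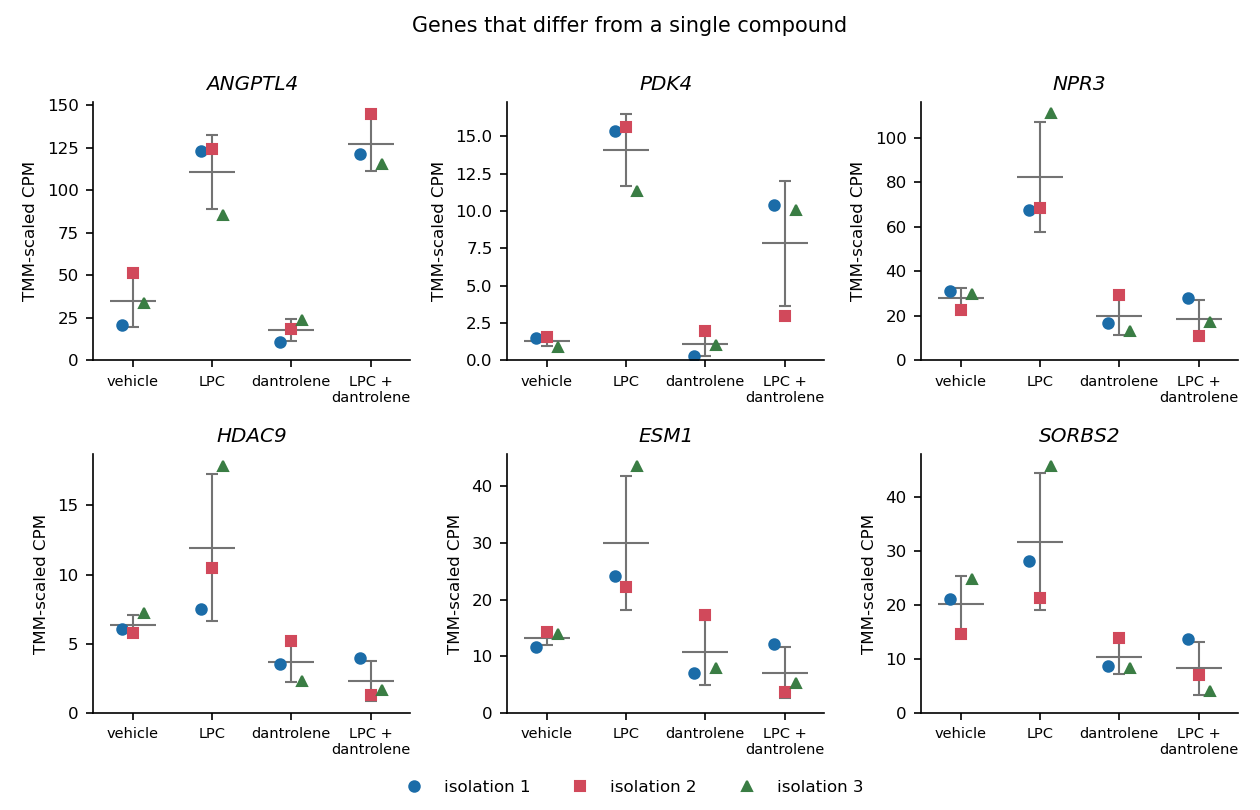
TMM-scaled CPM (linear axis) of ANGPTL4, PDK4, NPR3, HDAC9, ESM1 and SORBS2 in the 12 libraries by treatment; points are libraries, coloured by primary isolation, and grey ticks and bars are the group mean and SD of 3 libraries. ANGPTL4 is at 115 to 145 CPM with LPC + dantrolene and 10.9 to 23.6 CPM with dantrolene, and NPR3, HDAC9, ESM1 and SORBS2 are below every LPC library in each LPC + dantrolene library.

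Set side by side, each compound's own differences from vehicle, which share the vehicle libraries with those of the combination, were as follows. At the 824 genes called higher with LPC + dantrolene the median log2 difference was 1.79 with LPC and 1.66 with dantrolene. At the 119 called lower it was -0.39 with LPC and -1.25 with dantrolene. The aryl hydrocarbon receptor list had medians of 0.12 with LPC, 1.55 with dantrolene and 1.59 with both, and the glycolysis list -0.31, -0.86 and -0.87. The cohesin list had medians of 1.92, 1.69 and 1.75, and the sterol list -0.49, -0.36 and -0.79. The difference between the lists' medians was not tested.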

How the data were processed

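RNA was sequenced from paVICs of 3 primary isolations, each given 4 treatments. The authors deposited a table of read counts per Ensembl gene, which per the study's methods they had adjusted for batch effects with ComBat. The methods name no batch variable. The submitters' processing notes list HISAT2 2.0.5, R 4.1.1 and DESeq2 1.32.0, and strand use in counting is not given in the sources used here, so overlapping and antisense genes cannot be told apart. The authors' own result tables (mean signal, log2 fold change, its error, a test score, p-value and adjusted p-value) were deposited too and were not used. The tests do not count the degrees of freedom that the adjustment used, which can make adjusted p-values smaller than they should be.

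The table held 31908 genes, 19607 of them with counts. edgeR 4.0.16 (R 4.3.3, limma 3.58.1) was fitted to the counts of all 12 libraries in 4 groups after its filter by expression, which kept 13216 genes, with TMM scaling, quasi-likelihood tests and Benjamini-Hochberg adjustment over all of them at 0.05. Log2 CPM used a prior count of 2. A count of 3 corresponds to 0.143 to 0.186 CPM in the 6 libraries compared, and such floors cover counting error only. Symbols came from the table for 10923 genes and from a gene names table for 572, and 1721 had none. Positions came from RefSeq by symbol (10794 genes). No pair of libraries was identical. The script was tested on simulated data with known changes.

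The labels' source names give the primary isolation of each library. Deviations from the group means correlated at a median of -0.15 between libraries of one isolation (18 pairs, -0.54 to 0.21) and 0.11 between isolations. An alternative fit took the isolation as a block.

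Genes could be named, and not all were, if they were the 15 per direction with the smallest adjusted p that had a symbol and moved the same way in the 3 pairs of one isolation (5 per direction, without the pairs, against dantrolene or LPC), list members, and genes the study names. The members and the 22 gene lists were chosen with earlier results of these data known. Alternatives were DESeq2 1.42.0, other scalings, filters and thresholds, only the 2 groups compared, and each library left out. Comparisons of a library left out of a call with that call, under other scalings, were added after seeing the data.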

Additional observations from a re-analysis of the deposited data

How the results depend on the processing

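Against vehicle the count of higher genes, 824, became 522 in a fit of only the 2 groups compared, and ranged from 466 to 1706 with 1 library left out. The 119 lower genes became 52 on total counts, 31 with only the 2 groups, 59 with the isolation as replicate block and 193 at an adjusted p under 0.1, and ranged from 42 to 393. Against dantrolene the 2 higher genes became 1 on total counts, 5 with no filter, 1 with at least 10 counts in every library and 1 with only the 2 groups, and ranged from 1 to 5. The 1 lower gene became 0 on total counts (38 at an unadjusted p under 0.05, edgeR), 0 with at least 10 counts (37), 0 with only the 2 groups (23) and 0 with the block (43), where DESeq2 called 1, and ranged from 0 to 1. Against LPC the 29 higher genes became 5 on total counts, 11 with only the 2 groups, 9 with the block and 45 at 0.1, and ranged from 3 to 53. The 38 lower became 2, 5, 10 and 65 under the same settings, and ranged from 6 to 87. The cause was not tested.

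The calls of 123 genes against vehicle, taken from the lists and the naming rule and not all printed, were followed, and 67 kept the call under every alternative run. Of 21 against dantrolene or LPC, 5 did. None of these called genes reversed its direction. With 3 libraries a group and 16489684 to 24105935 counts each, differences of genes near 1 CPM rest on few counts.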

Other observations

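Of 229 tested zinc finger genes (of 244 in the table by their ZNF symbols) 19 were higher with LPC + dantrolene than vehicle and none was lower (8.3%, near the 6.23% of all genes tested), with a median log2 difference of 0.10, against -0.08 over all genes. The medians were 0.19, -0.04 and 0.14 in the 3 treated libraries. Without the second treated library 45 were higher, where 12.6% of all genes tested were, and without the second vehicle library 12 were. At 19 all 3 treated libraries lay above all vehicle libraries, as they did at 4.71% of all genes tested.

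None of 41 nuclear-encoded subunits of oxidative phosphorylation passed in either direction with edgeR or DESeq2, and 0 had an unadjusted p under 0.05. Their median log2 difference was -0.25 on TMM sizes and -0.03 on total counts, with -0.39, 0.06 and -0.42 in the 3 treated libraries. Ribosomal protein genes had 0 of 54 called, 0 at an unadjusted p under 0.05 and 0 with DESeq2, and a median of -0.29, with -0.38, 0.06 and -0.49 in the 3 libraries and -0.10 on total counts. On TMM sizes replicates 1 and 3 lay below the vehicle mean in both lists and replicate 2 near it. As a share of total counts ribosomal protein genes took 2.85%, 2.87% and 2.69% in the treated libraries and 2.56% to 3.28% with vehicle. The unfolded protein and integrated stress response list had 21 tested entries for 20 gene symbols, so at least 1 symbol was entered more than once. Of the 21 entries 0 were called, 0 had an unadjusted p under 0.05 (edgeR) and 0 passed with DESeq2. Without the second treated library 1 was higher and 1 lower. This list had a median of -0.13 on TMM sizes and 0.03 on total counts, and library values of -0.47, 0.19 and -0.15.

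Some listed genes of valve calcification were too low to test. ALPL, the alkaline phosphatase of mineralizing cells, had 26, 0 and 1 counts with vehicle and 0 in every LPC + dantrolene library. SP7, the osteoblast factor osterix, had 15, 0 and 0 counts with vehicle and 0 with LPC + dantrolene.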
